A study of Mus musculus with 36 samples.

Results

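Collagen chain genes encode the alpha chains of collagen, and they were taken here as every gene entry whose name has the form Col, a type number, the letter a and a chain number. 44 of 23847 gene entries had such a name, with 11 fibrillar chains, 6 basement membrane chains and 27 others. The others were 9 fibril-associated (FACIT) chains, 6 type VI (beaded filament) chains, 3 short chains, 4 transmembrane chains, 2 multiplexins and 3 further chains. RNA was measured in dissected gut of C57BL/6J mouse embryos at 3 stages of embryonic development, counted in days: E10.5 first, then E12.5 and last E14.5. The labels divide the embryos by genotype (wild type, Ret null) and by sex, which with the stages makes 12 groups of 3 libraries. Ret is the receptor tyrosine kinase of the neural crest cells that form the enteric nervous system, and the series title describes the null as homozygous. The sources used here do not give the allele, the number of embryos per library or whether replicate libraries come from separate embryos. The p-values below therefore refer to the spread among the sequenced samples only, and part of that spread may be technical.

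A collagen molecule is a trimer of alpha chains that the cell hydroxylates, folds and secretes. Fibrillar collagens, above all types I, III and V, form the fibrils of connective tissue and give the gut wall its strength. Type IV collagen forms the network of basement membranes under epithelium and around vessels and muscle cells, type VI forms beaded filaments around mesenchymal cells, and FACIT collagens coat fibrils.

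Promoter sequence is shown for 6 chains on which the results turn. They are the abundant fibrillar chains Col1a2 and Col3a1, and 4 type VI chains. These 4 had the largest tested log2 fold changes of their class between E12.5 and E14.5 in wild type. The scale of those tests understates the change of low chains such as Col6a6. Each line gives the 150 bases before the annotated start of the gene, 5′ to 3′ on the gene's strand, from RefSeq (GRCm38.p6). Capitals mark a match, on either strand, to any of 3 motifs. The first is the CCAAT box. The second, the TATA box, was searched as TATAAA. The third, the GC box bound by Sp1, was searched as GGGCGG.
Col1a2: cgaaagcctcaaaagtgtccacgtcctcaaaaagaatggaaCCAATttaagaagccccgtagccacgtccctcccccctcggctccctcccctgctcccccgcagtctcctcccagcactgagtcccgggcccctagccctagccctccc
Col3a1: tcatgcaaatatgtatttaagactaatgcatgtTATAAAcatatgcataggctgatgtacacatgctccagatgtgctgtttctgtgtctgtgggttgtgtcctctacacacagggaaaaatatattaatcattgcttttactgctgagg
Col6a1: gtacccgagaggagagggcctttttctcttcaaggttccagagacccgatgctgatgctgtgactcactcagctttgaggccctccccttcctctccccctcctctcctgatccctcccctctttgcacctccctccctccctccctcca
Col6a2: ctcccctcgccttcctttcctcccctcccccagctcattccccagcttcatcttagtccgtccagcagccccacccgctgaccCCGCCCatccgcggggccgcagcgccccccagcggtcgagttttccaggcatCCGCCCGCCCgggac
Col6a3: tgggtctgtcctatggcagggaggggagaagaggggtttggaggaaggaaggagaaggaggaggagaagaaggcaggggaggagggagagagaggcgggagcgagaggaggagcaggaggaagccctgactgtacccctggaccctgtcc
Col6a4: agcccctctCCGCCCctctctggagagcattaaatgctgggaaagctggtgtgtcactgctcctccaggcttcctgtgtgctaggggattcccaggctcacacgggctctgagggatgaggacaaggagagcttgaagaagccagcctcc
These windows lie at chr6:4505468-4505617 (plus strand, Col1a2), chr1:45311388-45311537 (plus, Col3a1), chr10:76726045-76726194 (minus, Col6a1), chr10:76623405-76623554 (minus, Col6a2), chr1:90843972-90844121 (minus, Col6a3) and chr9:106096692-106096841 (minus, Col6a4). Promoters of 35 of the 44 chains were matched by symbol; Col1a1, Col2a1, Col4a3, Col5a2, Col9a3, Col12a1, Col14a1, Col22a1 and Col26a1 are named only. In windows of 300 bases around the start, GGGCGG was present in 22 of the 35 (62.9%) against 35.7% of all 32851 promoters, CCAAT in 12 (34.3%) against 37.4%, and TATAAA in 5 (14.3%) against 13.6%. A match describes these letters only. Several chains sit beside each other in the genome: the bodies of Col4a1 and Col4a2 lie 2 bases apart on opposite strands of chromosome 8, those of Col4a3 and Col4a4 71 bases apart on chromosome 1, those of Col4a5 and Col4a6 1342 bases apart on the X chromosome, and Col6a1 and Col6a2 both lie on chromosome 10. The sources used here do not say whether the authors' quantification used strand.

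Several libraries go against their labels, and values without them are given beside the results on the chains that they change. Ret RNA stood at 2.11 to 13.3 FPKM (fragments per kilobase of transcript, scaled to the depth of the library) in wild type and at 0.0111 to 0.0587 FPKM in 11 libraries labelled Ret null, but at 4.74 to 6.49 FPKM in the other 7 (E10.5 females 1, 2 and 3, E12.5 male 2, E14.5 females 1 and 3, E14.5 male 1). In 4 libraries the sex-linked RNA did not match the labelled sex. In 4 pairs of libraries the values differed by no more than the sampling noise, and each pair was counted as 1 sample. That left 32 samples: 4 wild type and 5 labelled Ret null at E10.5, 5 and 6 at E12.5, and 6 and 6 at E14.5. The depth implied by the authors' intervals went with the stage, at 6.75 to 17.8 M fragments at E10.5, 17.5 to 41 M at E12.5 and 4.88 to 8.09 M at E14.5. Mesenchyme and epithelium, the compartments expected in gut, were both present: no gene of either marker list was at 0 throughout.

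Of the 44 chains, 28 reached 1 FPKM in every library, 12 in some and 4 in none. The 4 were Col4a3, a basement membrane chain best known from kidney, Col10a1, the chain of hypertrophic cartilage, Col19a1 and Col28a1. Col10a1 was listed at 0 in 21 libraries and did not exceed 0.0914 FPKM. Col4a4, the partner of Col4a3 in one type IV network, passed 1 FPKM in 1 library only, E14.5 wild-type male 2, at 1.77 FPKM; that library also had the highest level of heart markers (mean log2(FPKM + 1) of 7.28).

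The most abundant chains were fibrillar at every stage. Per length and over all libraries, the median was 340 FPKM for Col3a1, the chain of the type III homotrimer, 240 FPKM for Col1a1 and 231 FPKM for Col1a2, the 2 chains of type I. Col4a1, the main basement membrane chain, had a median of 65.9 FPKM, Col5a2 61 FPKM, Col6a1 57.3 FPKM, Col6a2 53 FPKM, Col5a1 49.4 FPKM, Col18a1 40.9 FPKM and Col4a2 39.7 FPKM. The cartilage chain Col2a1 had a median of 6.01 FPKM and Col6a5 one of 0.127 FPKM. The 3 chains of types I and III also had the highest means in wild type at each stage. The next highest was Col18a1 at E10.5 (63.3 FPKM), Col5a2 at E12.5 (57.2 FPKM) and Col6a2 at E14.5 (207 FPKM).

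**Figure D1:**
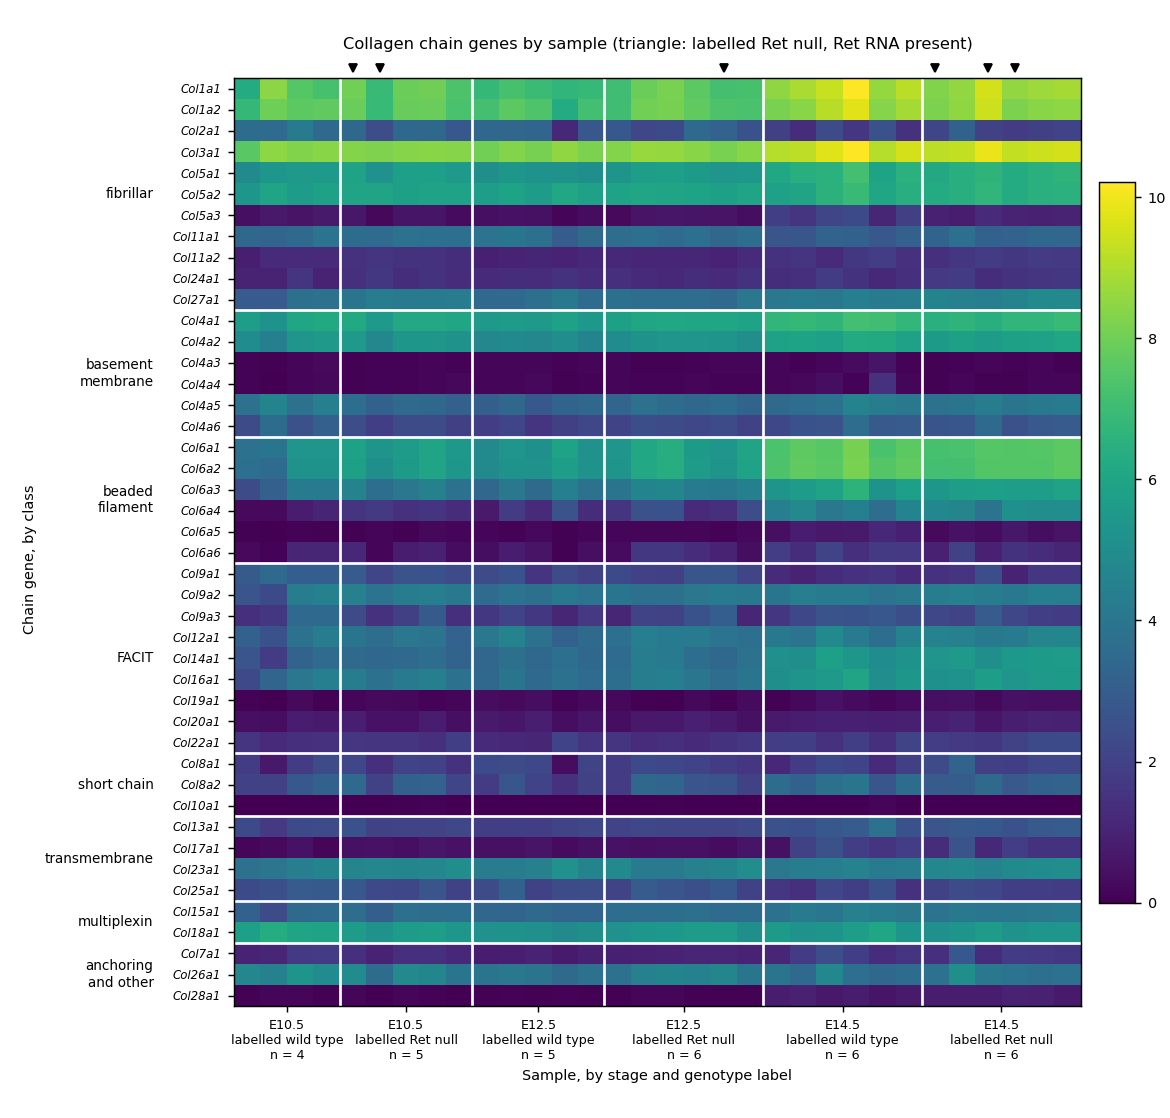
Level of each of the 44 collagen chains (rows, by class) in each of the 32 samples (columns, by stage and labelled genotype), as log2(FPKM + 1). Triangles mark samples labelled Ret null that hold Ret RNA, and brighter colours stand for higher levels. The brightest rows are the fibrillar chains Col1a1, Col1a2 and Col3a1, and the type VI rows Col6a1, Col6a2 and Col6a3 brighten at E14.5.

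Collagen chains made up a larger part of the measured RNA at E14.5 than before. In wild type they summed to 1031 ± 91.6 FPKM at E12.5 (mean ± SD, n = 5) and 2960 ± 962 FPKM at E14.5 (n = 6). As a share of all FPKM this was 0.275 ± 0.0716% at E10.5 (n = 4), 0.236 ± 0.0251% at E12.5 and 0.625 ± 0.208% at E14.5. The E14.5 samples ran from 0.435 to 0.997% and the E12.5 samples from 0.212 to 0.275%, with no overlap. In the samples labelled Ret null the share was 0.299 ± 0.0524% at E10.5 (n = 5), 0.298 ± 0.0449% at E12.5 (n = 6) and 0.617 ± 0.0748% at E14.5 (n = 6), again with a gap between the last pair of stages (highest 0.356% at E12.5, lowest 0.504% at E14.5).

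Within that total the mean fibrillar part differed little between groups, and the type VI part was largest at E14.5. Fibrillar chains held 66.5 to 67.8% of all collagen FPKM as the mean of each of the 6 stage and label groups, but single samples ran from 62.1 to 78.7%, the highest being E10.5 wild-type female 3. As group means, type VI chains held 5.29% at E10.5, 9.02% at E12.5 and 16.8% at E14.5 in wild type. In the samples labelled Ret null they held 8.94%, 10.2% and 16.5%. The E10.5 wild-type females held 3.95 and 2.48%, below the wild-type range at E12.5 of 7.08 to 12.8%. The E10.5 wild-type males held 7.46 and 7.28%, inside that range. Basement membrane chains held 10.1%, 8.31% and 7.19% in wild type and 8.91%, 8.75% and 6.90% in the samples labelled Ret null. These are descriptions of summed levels, with no test.

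**Figure D2:**
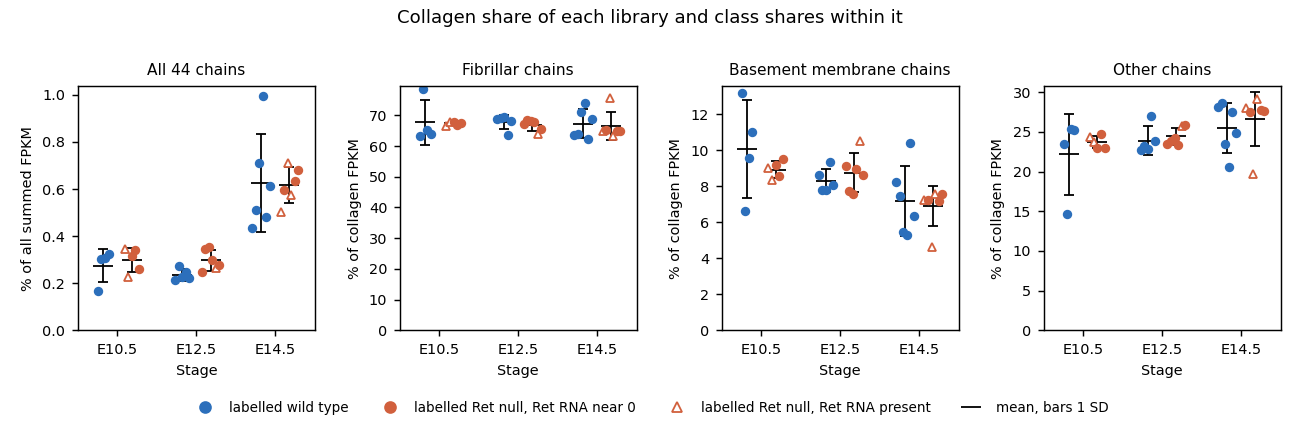
Collagen share of all FPKM, and the shares of fibrillar, basement membrane and all other chains in collagen FPKM, in percent, with 1 point per sample by stage and labelled genotype. The total share lies at 0.435 to 0.997% in E14.5 wild type against 0.212 to 0.275% at E12.5. The type VI chains are part of the other chains and are not drawn apart.

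Some chains that assemble together kept narrow ratios across the 32 samples, which share depth and tissue makeup within a sample. Col4a1 stood at 1.61 to 1.91 times Col4a2 (median 1.78) and Col6a1 at 0.884 to 1.35 times Col6a2 (median 1.02). Col1a1 ran from 0.693 to 1.44 times Col1a2 (median 1.05). Col4a5 ran from 1.83 to 3.26 times Col4a6 (median 2.74). Ratios of some other partners moved more. Col6a1 stood at 1.91 to 4.34 times Col6a3, and Col5a1 at 0.538 to 1.36 times Col5a2, with a mean ratio of 0.643 in wild type at E12.5 and 1.13 at E14.5. Col9a2, a chain of the FACIT collagen IX, ran from 0.377 to 19.1 times its partner Col9a1. Col3a1, which forms a trimer of its own, stood at 0.986 to 3.47 times Col1a1, with a mean ratio of 2.52 in wild type at E12.5 and 1.27 at E14.5.

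Between E10.5 and E12.5 few collagen chains changed in wild type. In E12.5 against E10.5, 37 chains were tested (at least 1 FPKM in 3 samples) and the other 7 (Col4a3, Col4a4, Col6a5, Col10a1, Col19a1, Col20a1 and Col28a1) were too low. Of the 37, 2 rose and 5 fell at an adjusted p under 0.05, where 2.75% of all 14321 genes tested rose and 1.82% fell. The median log2 fold change was -0.08 for the chains and 0.01 for all genes. No fibrillar chain passed the test and 2 of 4 basement membrane chains fell.

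Col18a1, the multiplexin of basement membranes whose end fragment is endostatin, fell from 53.3, 80.3, 61.2 and 58.4 FPKM at E10.5 to 35.1, 36.7, 33.6, 27.9 and 33.3 FPKM at E12.5. All 5 later samples lay below all 4 earlier ones (log2 fold change -0.88, SE 0.146, adjusted p = 0.00115). Col4a5, a basement membrane chain of the X chromosome, fell from 13.1, 23.6, 13.4 and 20.2 FPKM to 7.53, 9.85, 6.13, 8.91 and 9.55 FPKM. Its stages did not overlap either (-0.95, SE 0.171, adjusted p = 0.00206). The chain encoded next to it, Col4a6, fell from a mean of 6.94 to 2.84 FPKM (-0.97, SE 0.23, adjusted p = 0.0151). Col9a1 fell from 7.89 to 3.58 FPKM (-0.93, adjusted p = 0.0108) and Col26a1 from 28.9 to 13.8 FPKM (-0.97, adjusted p = 0.048).

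The 2 rising chains overlapped between stages. Col6a2 stood at 12.2 and 11 FPKM in the 2 E10.5 wild-type female samples, 36.7 and 36.9 FPKM in the 2 male samples, and 28.4, 37.1, 36.7, 51.8 and 36.2 FPKM at E12.5 (0.78, SE 0.2, adjusted p = 0.0253). Only the E10.5 females lay below the E12.5 range. Col14a1, a FACIT chain, averaged 6.90 and 10.7 FPKM (0.71, SE 0.178, adjusted p = 0.0214). When 1 of the 9 samples was left out in turn, the calls of Col18a1 and Col4a5 held in each case, while that of Col26a1 was lost in 9 of 9, Col6a2 in 5, Col14a1 and Col4a6 in 3 each and Col9a1 in 2. Without the E10.5 wild-type female 3, 2 chains were called in place of 7. Markers of gut mesenchyme and smooth muscle also changed between these stages (7 of 13 higher, 1 lower), and so did gut epithelium markers (5 of 12 higher), against 2.75% of all genes higher and 1.82% lower; their part in these results was not tested.

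Between E12.5 and E14.5 most collagen chains rose in wild type. Of 37 chains tested, 27 rose and 4 fell, where 31.0% of all genes rose and 27.9% fell. The median log2 fold change was 0.82 for the chains against 0.02 for all genes tested. All 5 tested type VI chains rose (median 2.38), all 4 tested basement membrane chains rose (median 1.02), and 8 of 11 fibrillar chains rose while 2 fell (median 0.55). In bulk RNA more cells of a type and more RNA per cell cannot be told apart, here or below.

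The type VI chains Col6a4, Col6a2 and Col6a1 had the 3 largest values on the log2(FPKM + 1) scale, which understates the change of low chains such as Col5a3 and Col17a1. Col6a2 stood at 28.4, 37.1, 36.7, 51.8 and 36.2 FPKM at E12.5 and between 162 and 289 FPKM at E14.5, with a median of 201 FPKM. Every E14.5 sample was above 3 times the highest E12.5 sample, and the log2 fold change was 2.45 (SE 0.181, adjusted p = 3.83e-10). Col6a1, the chain that pairs with it, was at 27.0, 38.8, 34.1, 59.5 and 35.1 FPKM and then at 156 to 281 FPKM, with a median of 194 FPKM. The stages lay far apart here too (2.38, SE 0.187, adjusted p = 8.88e-10). Col6a3, the large chain that joins them in the type VI trimer, rose from 13.8 ± 4.31 to 55.2 ± 21.5 FPKM (1.91, adjusted p = 2.43e-07), and Col6a4 from 2.24 ± 1.74 to 19.9 ± 5.51 FPKM (2.83, SE 0.276, adjusted p = 1.77e-08). Col6a6 rose from 0.361 to 2.29 FPKM (1.24).

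The fibrillar chains of types I, III and V rose together. Col1a1 was at 111, 152, 126, 105 and 115 FPKM at E12.5 and at 371 to 1191 FPKM at E14.5, with a median of 530 FPKM. The lowest E14.5 sample was more than 2 times the highest E12.5 sample (2.19, SE 0.336, adjusted p = 8.09e-06). Col1a2 rose from 148 ± 45.7 to 472 ± 213 FPKM (1.58, SE 0.294, adjusted p = 7.64e-05). Col3a1 was at 261, 315, 276, 365 and 290 FPKM and then at 534 to 1174 FPKM, with a median of 676 FPKM. Its stages did not overlap (1.25, SE 0.175, adjusted p = 2.39e-06). Of the type V chains, which set fibril width, Col5a1 rose by 1.22, Col5a2 by 0.44 and Col5a3 by 1.42, the last from 0.312 to 2.66 FPKM; the call of Col5a2 was lost without E12.5 wild-type females 1 and 2 (0.38, adjusted p = 0.0595, with 0.000613 to 0.0734 over all alternatives).

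**Figure D3:**
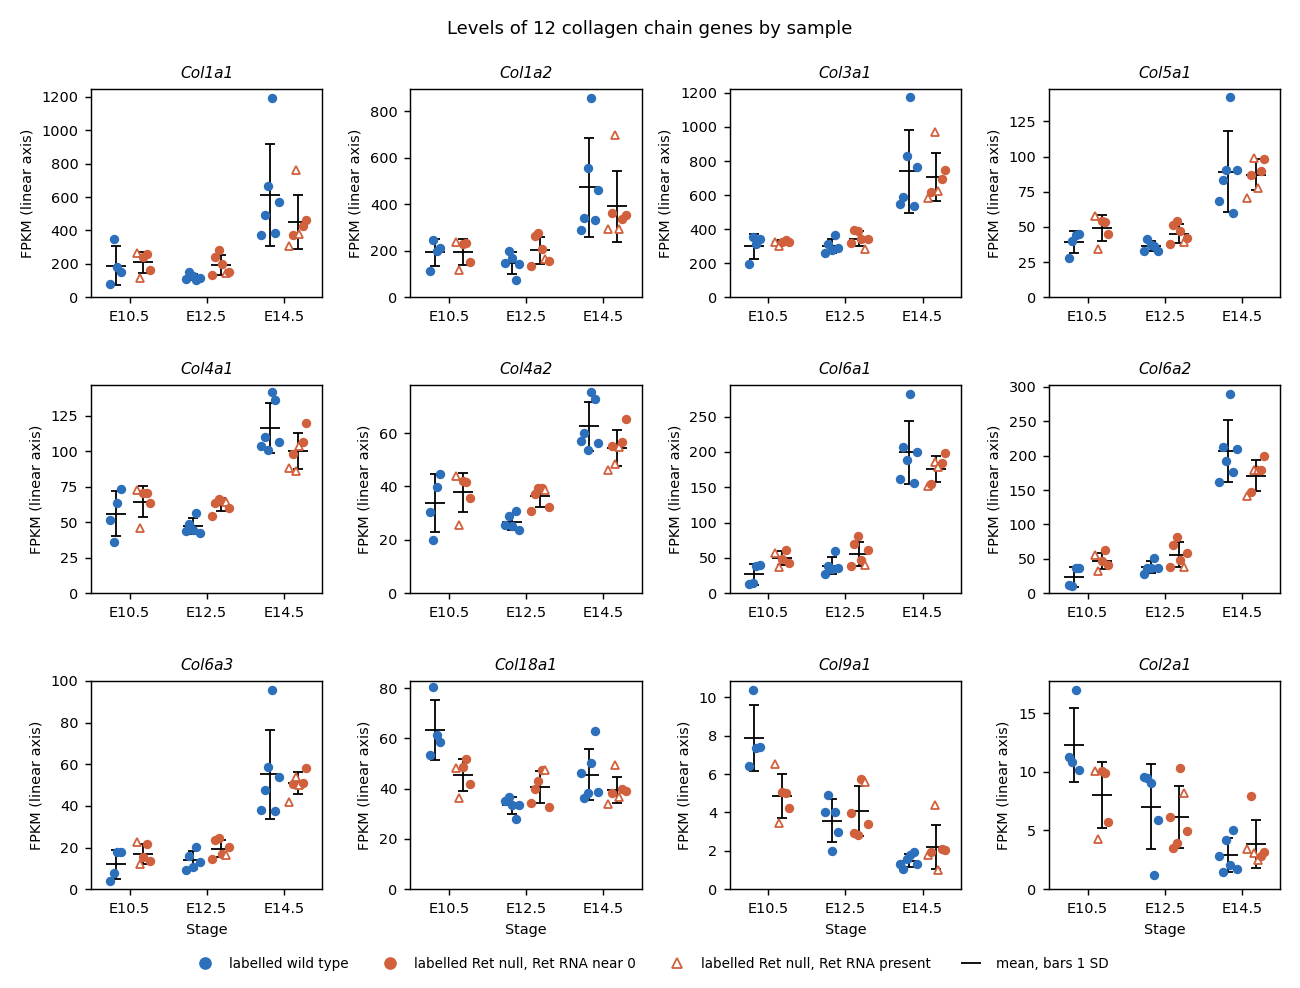
FPKM of 12 collagen chains in each sample on linear axes, by stage and labelled genotype, with the mean of each group as a tick and its SD as bars. In Col6a1 and Col6a2 all E14.5 samples of both labels lie above all earlier samples, while E14.5 wild-type male 1 stands highest for Col1a1 at 1191 FPKM.

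Basement membrane chains rose too, Col4a1 and Col4a2 with little spread between samples. Col4a1 was at 44.2, 49.0, 44.3, 56.6 and 42.6 FPKM at E12.5 and at 101 to 141 FPKM at E14.5 (median 108). The lowest later sample was far above the highest earlier one (1.28, SE 0.108, adjusted p = 2.19e-09). Col4a2 rose from 26.8 ± 3.0 to 62.5 ± 9.16 FPKM (1.18, SE 0.123, adjusted p = 4.24e-08). Col4a5 rose by 0.77, from 8.39 to 15.4 FPKM, and Col4a6 by 0.87, from 2.84 to 6.32 FPKM, against E10.5 means of 17.6 and 6.94 FPKM.

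Among the remaining classes, the FACIT chains Col16a1 and Col14a1 rose by 1.73 (11.8 to 42.0 FPKM) and 1.71 (10.7 to 37.9 FPKM). Col8a2, a short chain of vessel and corneal matrices, rose by 1.43, and Col17a1, the transmembrane collagen of hemidesmosomes, by 1.28 (0.355 to 2.57 FPKM). Col15a1 rose by 0.77 and Col18a1 by 0.40, both multiplexins; the call of Col18a1 was lost (0.26, adjusted p = 0.101) without E14.5 wild-type female 1 and male 2, the samples highest in liver and heart markers, a setting chosen after the data were seen. Col7a1, the anchoring fibril chain, rose by 0.82 and Col13a1 by 0.92.

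The 4 falling chains included 3 that are best known from cartilage. Col2a1, the cartilage fibrillar chain, stood at 9.60, 9.43, 9.05, 1.22 and 5.88 FPKM at E12.5 and at 1.5 to 5.03 FPKM at E14.5. The stages overlapped because E12.5 wild-type male 2 was low (-1.03, SE 0.328, adjusted p = 0.00983). Col9a1 fell from 3.58 ± 1.12 to 1.49 ± 0.334 FPKM without overlap (-0.90, SE 0.189, adjusted p = 2.94e-04), and Col11a1, which copolymerizes with type II, from 11.7 ± 3.17 to 6.91 ± 1.39 FPKM (-0.72, adjusted p = 7.77e-05). Their partner chains Col9a2 and Col11a2 were called higher instead. With 1 sample left out in turn, they had log2 fold changes of 0.219 to 0.372 and 0.47 to 0.571. The call of Col9a2 was lost without E12.5 wild-type females 1 and 2 (0.219, adjusted p = 0.123). Col25a1, a transmembrane chain made by neurons, fell from 4.75 to 2.71 FPKM (-0.68, adjusted p = 0.00651), a call lost without E12.5 wild-type female 3 (-0.49, adjusted p = 0.0763, with 3.44e-04 to 0.0763 over all alternatives). Cartilage markers as a list stayed low at a mean log2(FPKM + 1) of 0.903 to 1.37 over all groups, with 2 of 6 tested genes higher and 1 lower at E14.5.

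Other cell markers moved between the same stages. At E14.5 against E12.5 in wild type, where 31.0% of all genes rose and 27.9% fell, gut mesenchyme and smooth muscle markers were higher in 7 of 13 and lower in 4, endothelium markers higher in 8 of 11, gut epithelium in 9 of 12, heart in 5 of 7 and pancreas in 6 of 9. The mean log2(FPKM + 1) of the mesenchyme list was 4.88 to 6.06 at E12.5 and 5.56 to 6.17 at E14.5. E14.5 wild-type female 1 stood out in liver markers (7.51) and male 2 in heart markers (7.28); without these 2 samples 26 chains rose and 4 fell. The part of tissue makeup and of depth, which also differed between these stages, was not tested.

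In the samples labelled Ret null the chains also rose at the later step. Between E10.5 and E12.5, 0 of 37 chains rose and 2 fell, Col27a1 (-0.45, adjusted p = 0.0107) and Col11a2 (-0.37, adjusted p = 0.0227), where 0.88% of all genes rose and 2.48% fell. Neither was called without the libraries that hold Ret RNA (adjusted p = 0.283 and 0.441), a setting in which limma called 0 chains (2 had an unadjusted p under 0.05) and 0.0913% of all genes. Between E12.5 and E14.5, 25 chains rose and 1 fell, where 23.2% of all genes rose and 11.8% fell. The median was 0.56 for the chains and 0.04 for all genes. Without the libraries that hold Ret RNA, 19 rose and 1 fell, where 15.6% of all genes rose and 7.75% fell.

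In these samples Col6a4 rose from 3.16 ± 1.72 to 26.9 ± 7.39 FPKM (2.80, SE 0.26, adjusted p = 4.03e-08). Col6a1 rose from 56.1 ± 17.1 to 176 ± 18.6 FPKM (1.68) and Col6a2 from 56.0 ± 18.0 to 171 ± 22.2 FPKM (1.64). Col1a1 was at 134 to 286 FPKM at E12.5 (median 176) and at 307 to 762 FPKM at E14.5 (median 402), with no overlap (1.22, SE 0.317, adjusted p = 0.0045). Col1a2 rose by 0.93, Col3a1 by 1.02, Col27a1 by 0.90, Col4a1 by 0.68 and Col4a2 by 0.57. Without the libraries that hold Ret RNA, Col1a1 (1.09, adjusted p = 0.0637), Col1a2 (0.84, adjusted p = 0.0977) and Col5a2 (0.49, adjusted p = 0.0657) no longer passed. Col9a1 was the falling chain (-0.69, adjusted p = 0.00403).

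**Figure D4:**
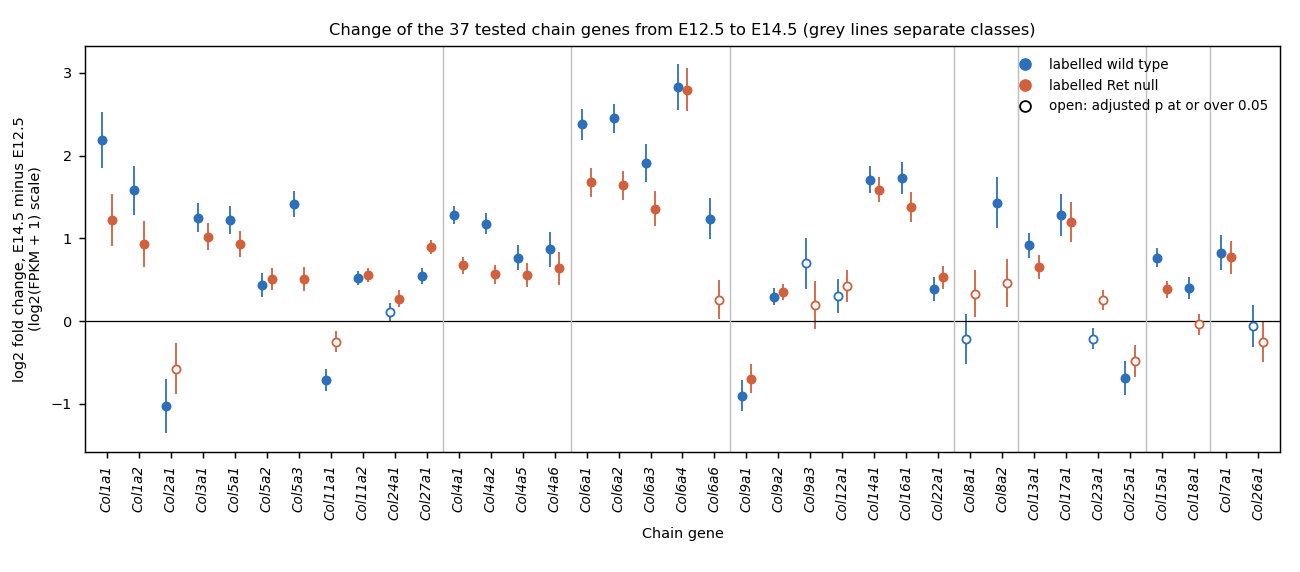
Log2 fold change ± SE from E12.5 to E14.5 of the 37 tested chains, in wild type and in the samples labelled Ret null; open symbols have an adjusted p of 0.05 or more. The largest values in both are those of Col6a4 (2.83 and 2.80); next come Col6a2 (2.45) and Col6a1 (2.38) in wild type, and Col6a1 (1.68) and Col6a2 (1.64) in the samples labelled Ret null.

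The size of the E12.5 to E14.5 change was then compared between labels with an interaction term. Of 37 chains, 5 had a lower change in the samples labelled Ret null and 0 a higher one, where 6.19% of all 14321 genes had a lower and 11.2% a higher change. With the libraries that hold Ret RNA left out, 3 chains had a lower change and 0 a higher one, against 7.3% and 10.7% of all genes. The comparison shares its E12.5 and E14.5 samples with the stage comparisons above, so its values restate the gap between them. The median interaction was -0.21 for the 37 chains and 0.02 for all genes.

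Col4a1 was at 54.3, 63.8, 66.7, 65.0, 63.9 and 59.8 FPKM in the E12.5 samples labelled Ret null, of which 5 lay above all 5 wild-type samples, and at 85.9 to 120 FPKM at E14.5 (median 101), overlapping wild type. Its interaction was -0.60 (SE 0.148, adjusted p = 0.0105). Col4a2 had -0.61 (SE 0.168, adjusted p = 0.0174) with means of 36.3 and 54.3 FPKM labelled Ret null against 26.8 and 62.5 FPKM in wild type. Both calls held when each of 23 samples was left out. Without the libraries that hold Ret RNA, Col4a1 kept its call (-0.52, adjusted p = 0.0301) and Col4a2 did not (-0.50, adjusted p = 0.0572).

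Col5a3, a minor type V chain, had the lowest adjusted p of the 5. It stood at 0.194 to 0.537 FPKM at E12.5 and 0.770 to 1.35 FPKM at E14.5 labelled Ret null, and at 0.135 to 0.426 and 1.13 to 3.87 FPKM in wild type. The interaction was -0.91 (SE 0.215, adjusted p = 0.00871) and -1.0 (adjusted p = 0.0168) without the libraries that hold Ret RNA. Col6a2 (-0.81, SE 0.249, adjusted p = 0.0302) kept its call without those libraries (-0.91, adjusted p = 0.0342), but lost it in 11 of the 23 fits that each left out 1 sample (adjusted p up to 0.0853). Col6a6, at 0.361 to 2.29 FPKM as group means, had -0.99 (SE 0.343, adjusted p = 0.0497) and lost its call in 19 of 23 such fits.

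Genotype labels were compared within each stage. At E10.5, 6 of 35 chains tested were higher in the samples labelled Ret null and 0 were lower, where 5.61% of all 13165 genes were higher and 2.67% lower; Col5a3 and Col17a1 were also too low to be tested here. The median was 0.19 for the chains and 0.01 for all genes. The 6 were the type VI chains Col6a1, Col6a2 and Col6a4, the fibrillar chain Col27a1, the transmembrane chain Col23a1 and the FACIT chain Col9a2.

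In each of the 6 the 2 wild-type female samples were low. Col6a1 was at 13.1 and 14.9 FPKM in these and 38.9 and 39.7 FPKM in the 2 wild-type male samples, against 57.3, 37.6, 48.5, 61.6 and 42.7 FPKM in the 5 samples labelled Ret null. The wild-type males lay inside the range of the samples labelled Ret null and the females far below it (1.01, SE 0.142, adjusted p = 0.00982). Col6a2 showed the same order, with 12.2 and 11 FPKM in wild-type females, 36.7 and 36.9 FPKM in males and 32.6 to 62.3 FPKM labelled Ret null (1.1, SE 0.166, adjusted p = 0.0126). Col9a2 was at 5.44 and 3.92 FPKM in the females, 19.0 and 21.5 FPKM in the males and 13.9 to 20.6 FPKM labelled Ret null (0.76, SE 0.13, adjusted p = 0.0172), so 1 wild-type male lay above every sample labelled Ret null.

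The other 3, picked by their calls, did not overlap between labels. The share of all genes without overlap is not given here, so this adds no support to the calls. Col27a1 was at 6.63, 6.59, 12.8 and 13.5 FPKM in wild type and at 14.7, 18.8, 17.0, 17.1 and 18.4 FPKM labelled Ret null (0.80, SE 0.0756, adjusted p = 0.00306). Col6a4 was at 0.189, 0.198, 0.732 and 1.07 FPKM against 1.99, 2.34, 1.73, 1.92 and 1.46 FPKM (0.96, SE 0.106, adjusted p = 0.00407). Col23a1 was at 13.4, 15.1, 19.6 and 23.2 FPKM against 24.2, 25.9, 25.0, 25.3 and 31.0 FPKM (0.55, SE 0.0861, adjusted p = 0.0138). In all 3 the wild-type females were again the lowest samples. When 1 of the 9 samples was left out in turn, Col27a1, Col6a4 and Col6a1 kept their calls. The call of Col23a1 was lost without wild-type male 3 and 4 (adjusted p = 0.0508), that of Col6a2 without wild-type male 5 (adjusted p = 0.0533) and that of Col9a2 without either (adjusted p = 0.0644 and 0.0589).

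All 3 E10.5 female libraries labelled Ret null hold Ret RNA, so without those libraries only samples labelled male were compared, 3 against 2; the sex-linked RNA of 1 of the 3 did not match that label. There 0 of 34 chains were called by limma (11 at an unadjusted p under 0.05), where 0.522% of all genes were. Col27a1 then had 0.39 (adjusted p = 0.0675), Col6a4 0.51 (0.153), Col6a1 0.35 (0.238), Col6a2 0.41 (0.219) and Col23a1 0.32 (0.208), each in the same direction, and Col9a2 -0.15 (0.564) in the other. Leaving out wild-type female 1 and 2 raised the count from 6 to 12, and the share of all genes called in that setting is not given here. Without the libraries whose sex-linked RNA goes against the label 5 chains were higher, where 1.15% of all genes were; Col23a1 missed the threshold (0.55, adjusted p = 0.0646). The mesenchyme and smooth muscle list stood at a mean log2(FPKM + 1) of 3.85 to 4.68 in wild type and 5.27 to 5.51 labelled Ret null, with 9 of 13 genes higher, and the gut epithelium list at 2.92 to 3.47 and 3.44 to 3.99. Stomach markers stood at 0.995 to 2.65 and 1.81 to 3.81, and pancreas markers at 0.276 to 1.17 in wild type and at a median of 1.5 labelled Ret null, the latter list without overlap. The part of these lists in the result was not tested. No basement membrane chain was called: Col4a5 was at 13.1 to 23.6 FPKM in wild type and 7.76 to 11.9 FPKM labelled Ret null, without overlap, but missed the threshold (-0.76, adjusted p = 0.0576).

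**Figure D5:**
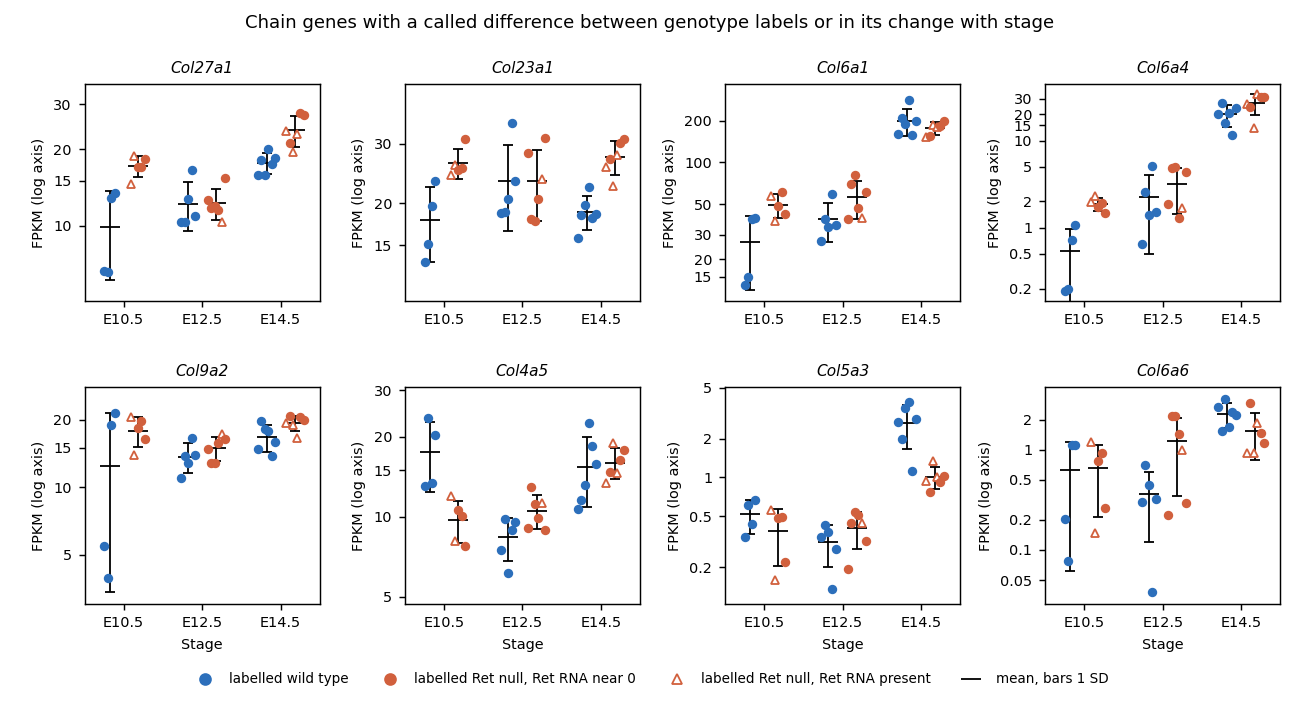
FPKM on a log axis of 8 chains called in a comparison of labels or in an interaction, with 1 point per sample by stage and labelled genotype. At E10.5 the 2 wild-type female samples are the lowest points of Col27a1, Col23a1, Col6a1, Col6a4 and Col9a2; at E14.5 Col23a1 is higher in every sample labelled Ret null than in every wild-type sample.

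At E12.5 limma called 0 of 35 chains, where 0.00759% of all genes, 1 of 13182, were called. An unadjusted p under 0.05 by limma was reached by 14 of the 35 chains and by 1115 of the 13182 genes. The median was 0.29 for the chains against 0.01 for all genes. The lowest adjusted p belonged to Col15a1 at 0.301, with 8.98 to 10.4 FPKM in wild type and 11 to 12.8 FPKM labelled Ret null (0.29, SE 0.0535), and then to Col4a1 at 0.344 (0.40) and Col4a2 at 0.37 (0.42). Without the library labelled Ret null that holds Ret RNA, male 2, limma again called 0 chains (12 at an unadjusted p under 0.05) and 0.259% of all genes.

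At E14.5, 2 chains were higher and 1 lower in the samples labelled Ret null, where 10.9% of all 13861 genes were higher and 4.84% lower. Col23a1, a transmembrane collagen, was at 15.8 to 22.3 FPKM in wild type (median 18.5) and 22.4 to 31.0 FPKM labelled Ret null (median 27.4). The 2 labels did not overlap (0.52, SE 0.0762, adjusted p = 0.00819). Col27a1 was at 15.8 to 20.1 FPKM (median 17.9) and 19.5 to 27.7 FPKM (median 23.3), with an overlap of the highest wild-type sample and the lowest other one (0.40, SE 0.07, adjusted p = 0.0108). Both calls held when any 1 sample was left out and without the libraries that hold Ret RNA (0.60, adjusted p = 0.0183, and 0.43, adjusted p = 0.0214).

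Col5a3 was lower at E14.5, with 1.13 to 3.87 FPKM in wild type (median 2.76) and 0.770 to 1.35 FPKM labelled Ret null (median 0.972). Only the lowest wild-type sample, male 2, lay within the other range (-0.83, SE 0.186, adjusted p = 0.0195). The call was lost without female 1 labelled Ret null (-0.81, adjusted p = 0.0511) and without the 3 samples that hold Ret RNA (-0.92, adjusted p = 0.0676), within 0.00913 to 0.0676 over all alternatives. Without those 3 samples 2 chains were higher and 0 lower, where 3.96% of all genes were higher and 4.65% lower. The abundant chains overlapped between labels at this stage and none was called: Col1a1 averaged 612 and 452 FPKM (-0.38, adjusted p = 0.362), Col3a1 740 and 706 FPKM (-0.03, adjusted p = 0.927) and Col6a1 199 and 176 FPKM (-0.16, adjusted p = 0.38). Pancreas markers were lower in 4 of 9 and red cell markers in 5 of 10 genes in this comparison, where 4.84% of all genes were lower; without the libraries that hold Ret RNA both counts were 0 by limma. Their part was not tested.

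The change between E10.5 and E12.5 differed between labels in 3 chains, 1 upwards and 2 downwards, where 0.545% of all genes differed upwards and 0.796% downwards. Col27a1 had -0.75 (SE 0.139, adjusted p = 0.00902), Col9a2 -0.62 (SE 0.154, adjusted p = 0.0433) and Col4a5 1.06 (SE 0.23, adjusted p = 0.023). Col4a5 fell from a mean of 17.6 to 8.39 FPKM in wild type and stood at 7.76 to 11.9 and then 8.89 to 12.9 FPKM labelled Ret null. Without the libraries that hold Ret RNA, limma called 0 chains (7 at an unadjusted p under 0.05) and 0.00702% of all genes: Col27a1 was at -0.38 (adjusted p = 0.693), Col4a5 at 0.95 (0.588) and Col9a2 at 0.29 (0.721), a reversed sign. When 1 of 20 samples was left out in turn, Col27a1 kept its call throughout, Col4a5 lost it in 5 cases and Col9a2 in 15.

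Genes that make, process, bind or degrade collagen moved with the chains between E12.5 and E14.5 in wild type. In this comparison 31.0% of all genes rose and 27.9% fell, with a median of 0.02. Of 21 biosynthesis enzymes and chaperones tested 15 rose and 2 fell (median 0.36). Creb3l1, a transcription factor of the secretory pathway, rose from 9.51 to 24.7 FPKM (1.27) and the prolyl hydroxylase subunit P4ha2 from 9.81 to 22.7 FPKM (1.03), while P4ha3 fell (-0.44). Serpinh1, the collagen chaperone HSP47, averaged 414 and 510 FPKM. Of 13 processing and crosslinking genes 8 rose and 3 fell (median 0.56): Lox, the lysyl oxidase that crosslinks collagen and elastin, rose from 4.78 to 35.4 FPKM (2.64, adjusted p = 3.77e-07) and Pcolce, which enhances propeptide removal, from 21.3 to 59.3 FPKM (1.38), after a fall of -1.27 between E10.5 and E12.5.

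The list of fibril-associated proteins, which also holds elastin, had the largest median of these lists, 1.37, with 14 of 17 rising and 0 falling. Dpt, dermatopontin, rose from 0.0458 to 9.23 FPKM (3.06), Eln, elastin, from 18.1 to 141 FPKM (2.94), Thbs2 from 3.49 to 22.7 FPKM (2.41) and the proteoglycan Dcn from 35.1 to 173 FPKM (2.24). Of 14 tested basement membrane partners 12 rose, and Lama1, an early laminin chain, fell (4.26 to 2.95 FPKM, -0.47). Collagen receptors rose in 5 of 8, led by the integrin subunits Itga11 (1.08) and Itga1 (0.94), and turnover genes in 8 of 10, led by the protease Ctsk (1.69 to 7.10 FPKM, 1.62). Genes of TGF-beta signalling did not share the direction: 4 of 14 rose and 7 fell, with Tgfbr1, a receptor, down from 29.4 to 15.3 FPKM (-0.92) and Tgfbr2, its partner receptor, up (0.79).

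In the samples labelled Ret null these lists were counted over the same stages, where 23.2% of all genes rose and 11.8% fell. Of 21 biosynthesis genes 8 rose and 1 fell, of 13 processing and crosslinking genes 4 rose and 1 fell, and of 8 receptors 6 rose. Of 10 turnover genes 5 rose, of 14 basement membrane partners 11 rose and 1 fell, of 17 fibril-associated genes 10 rose and 1 fell, and of 14 TGF-beta genes 1 rose and 3 fell. With the libraries that hold Ret RNA left out, where 15.6% of all genes rose and 7.75% fell, the numbers rising and falling were 3 and 0 in biosynthesis, 4 and 0 in processing, 5 and 0 in receptors, 2 and 1 in turnover, 11 and 0 in basement membrane partners, 7 and 0 in fibril-associated genes and 1 and 0 in TGF-beta signalling. Lox rose by 1.85 (2.01 without those libraries) and Dcn by 1.66 (1.56 without). The called interactions included a lower change for Dpt (-1.43), Bgn (-1.43), Thbs2 (-1.02) and Loxl1 (-0.83), and a higher value for Tgfbr1 (0.62); without the libraries that hold Ret RNA, Dpt (-1.50), Thbs2 (-1.05) and Tgfbr1 (0.69) were still called, and Bgn and Loxl1 were not. At E14.5 itself 4 of 17 fibril-associated genes were lower in the samples labelled Ret null, where 4.84% of all genes were: Dpt (2.39 against 9.23 FPKM, -1.38), Eln (64.9 against 141 FPKM, -1.09), Bgn (59.8 against 101 FPKM, -0.75) and Thbs2 (15.2 against 22.7 FPKM, -0.55). Of these 4, Bgn kept its call without the libraries that hold Ret RNA (-0.70, adjusted p = 0.0356) and the other 3 did not.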

How the data were processed

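Per the labels' protocols and the series' design text, libraries were made from poly(A) RNA of dissected gut and read as pairs on a HiSeq 2000. The submitters' processing notes name Picard, TopHat2, Cufflinks and Cuffdiff with mm10; the sources used here do not give versions, order or any scaling between libraries. Per the file headers, each deposited value is an FPKM of 1 gene in 1 library, beside the interval set by the authors, for 23847 entries; depth was read from the interval widths.

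Members and gene lists were chosen with earlier results of these data known. Tests used limma 3.58.1 (R 4.3.3, empirical Bayes with trend, two-sided) on log2(FPKM + 1), for genes with status OK that reached 1 FPKM in 3 or more samples. Genotype labels were compared in a fit per stage with 4 group means, because the spread differs between stages. Stages and interactions were compared in 1 fit with 12 group means. Its groups share an estimate of the spread over all stages, so its SE and p-values also draw on stages outside the comparison. Each contrast was averaged over the sexes. P-values were adjusted over all genes tested (Benjamini-Hochberg) and called under 0.05. Counts at an unadjusted p under 0.05 in fits without the libraries that hold Ret RNA lack a share of all genes. They are not read as results on the chains. Pairs of libraries alike within sampling noise were averaged, a rule taken from earlier work on these data. The fits were tested on simulated data, where 90 to 99% of genes changed by a log2 of 1 were recovered in the 4 comparisons simulated. The changed genes were not drawn from those of low level, and the noise was independent between genes and samples. The recovery therefore does not cover low chains or shifts that genes share, such as tissue makeup.

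Chains are named if their wild-type mean reached 50 FPKM at any stage, if called (up to 8 per direction), or as partners of a trimer or gene pair; list genes are named if called, up to 4 per direction; some genes are not reported here by name. Serpinh1 and the untested chains named were added after their values were seen. Alternatives covered the pseudocount, filter, scaling, trend, replicate block, doubtful libraries and each sample left out. Tables and plots used Python 3.11.15, pandas 2.3.3, numpy 2.4.6 and matplotlib 3.10.9.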

Additional observations from a re-analysis of the deposited data

Results flagged for a closer look

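Some samples stood apart within their group, with a gap to the nearest other sample above Dixon's 95% critical value. 6 of 72 groups tested (the 11 abundant chains and the collagen share) were marked this way, where chance marks about 1 in 20. Col1a1 stood at 1191 FPKM in E14.5 wild-type male 1, with the nearest sample at 664 FPKM. The same sample held 142 FPKM of Col5a1 (nearest 90.8 FPKM) and 95.5 FPKM of Col6a3 (nearest 58.6 FPKM). E14.5 female 3 labelled Ret null, which holds Ret RNA, had 762 FPKM of Col1a1 (nearest 461 FPKM) and 699 FPKM of Col1a2 (nearest 364 FPKM). The collagen share was 0.168% in the E10.5 wild-type female sample averaged from libraries 1 and 2, where the nearest sample had 0.302%.

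The stage change differed between labels in 8 chain results by an interaction term (limma, adjusted over all genes). Between E10.5 and E12.5 these were Col27a1 at -0.75 (adjusted p = 0.00902), Col9a2 at -0.62 (adjusted p = 0.0433) and Col4a5 at 1.06 (adjusted p = 0.023). Between E12.5 and E14.5 they were Col5a3 at -0.91 (adjusted p = 0.00871), Col4a1 at -0.60 (adjusted p = 0.0105), Col4a2 at -0.61 (adjusted p = 0.0174), Col6a2 at -0.81 (adjusted p = 0.0302) and Col6a6 at -0.99 (adjusted p = 0.0497). 7 of the libraries labelled Ret null hold Ret RNA; without them Col5a3, Col4a1 and Col6a2 were still called.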

How the results depend on the processing

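The rise between E12.5 and E14.5 kept its direction in every called chain under every alternative run: 28 to 33 chains were called in wild type, against 31, and 20 to 28 in the samples labelled Ret null, against 26. Calls were lost most often by Col22a1 in wild type (9 of 21 alternatives) and Col24a1 labelled Ret null (14 of 21). Leaving out 1 sample gave 28 to 31 and 25 to 28. Quantile normalization moved the median of all genes in the wild-type comparison from 0.02 to -0.09, and 26 chains still rose and 4 fell. The counts of the other comparisons moved more. Where no share of all genes is given for an alternative, here or above, a change in its count may not be particular to the chains. With every library counted as a sample, E12.5 against E10.5 in wild type gave 14 chains in place of 7, the labels at E10.5 gave 14 in place of 6, and the interactions gave 5 in place of 3 and 9 in place of 5. Without the libraries that hold Ret RNA the counts were 0 for the earlier stage change labelled Ret null, 0 for the labels at E10.5, 0 for the earlier interaction and 3 for the later one. Col9a2 reversed there, at -0.15 between labels at E10.5 and 0.29 in the earlier interaction; the cause was not tested. Without the libraries whose sex-linked RNA goes against the label, the counts were 4 for the earlier stage change in wild type, 0 for it labelled Ret null, 0 for the earlier interaction and 3 for the later one.

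Leaving out 1 sample gave 2 to 8 chains for the earlier stage change in wild type, 1 to 2 for it labelled Ret null, 4 to 12 for the labels at E10.5, 0 to 0 at E12.5, 2 to 5 at E14.5, and 1 to 5 and 3 to 9 for the interactions. It gave collagen shares of 0.259 to 0.31% and 0.287 to 0.317% at E10.5 (wild type, labelled Ret null), 0.227 to 0.242% and 0.287 to 0.309% at E12.5, and 0.551 to 0.663% and 0.598 to 0.64% at E14.5. Same-numbered libraries of the 2 labels correlated at -0.292 to 0.352 in their deviations from the group mean. With so few libraries per group this cannot tell whether a shared number stands for a shared litter or batch. With the replicate block the earlier interaction had 1 chain. Every other count stayed within 1.5 times its value. The labels at E12.5 gave 0 chains under every alternative. At E14.5 depth was lowest, which limits chains near 1 FPKM.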
